A study of Homo sapiens with 8 samples.

Results

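Arrays labelled IRE1 shRNA were compared with arrays labelled NT (non-targeting) shRNA in RPMI-8226 and JJN3, established human lines of multiple myeloma, a cancer of plasma cells. The arrays of this comparison were taken by their labels, 4 of the 8 arrays of the study: 1 array labelled IRE1 shRNA and 1 labelled NT shRNA from each line, paired by line, 2 against 2. The other 4 arrays were of uninfected cells and of cells labelled XBP1 shRNA, 1 each per line; they served to estimate the spread and to show where the NT arrays themselves lay. The infected cultures had received a lentivirus that expresses the shRNA, with 8 µg/mL polybrene for 16 h, and RNA was taken at 96 h; uninfected cells had not received it, and all cultures otherwise shared the same medium. There was 1 array per line and treatment, so the lines are the replicates (n = 2 per label). The shRNA sequences, their number per target, and whether the infected cells were clones are not given in the sources used here.

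IRE1, the protein of ERN1, is a kinase and RNase in the membrane of the endoplasmic reticulum (ER) that senses unfolded protein. Its RNase removes a short intron from the mRNA of XBP1, and the spliced form encodes a transcription factor that raises genes for protein import, folding and transport in secretory cells such as plasma cells. A second branch, through the kinase PERK and the transcription factor ATF4, raises genes of amino acid supply and of the stress response, and the RNase can also cut other mRNAs bound at the ER.

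The values were deposited on a log scale, taken as log2, with each probe set centred on its median over the 8 arrays. A value of 1 is therefore 2-fold above that median; the values give differences between arrays and no expression level. A gene was represented by its most variable probe set, and 19775 genes were tested with limma, with the line as a block; errors are standard errors (SE) of that fit. Hybridisation controls had a median of 0.42 on the JJN3 array labelled IRE1 shRNA, and from -0.15 to 0.09 on the other 7. Poly-A control medians on the uninfected, NT, XBP1 shRNA and IRE1 shRNA arrays were -0.04, 0.25, 0.43 and -0.03 in RPMI-8226. In JJN3 they were -0.17, -0.05, 0.19 and -0.10. The 3′ minus 5′ difference of the actin control probe sets was 0.34, 0.13, 0.33 and 0.42 in JJN3, and -0.43, -0.61, -0.51 and -0.56 in RPMI-8226. The part of these controls in the results was not tested. The lists of T and NK, myeloid, stromal and epithelial, and erythroid markers had mean values on the arrays labelled IRE1 shRNA of 0.42, 0.17, 0.10 and 0.08 in RPMI-8226 and -0.35, -0.07, 0.02 and 0.02 in JJN3. On the NT arrays the same means were 0.42, 0.14, 0.12 and -0.08 in RPMI-8226 and -0.34, -0.25, -0.12 and 0.01 in JJN3. Centred values cannot show whether a marker was absent, so the plasma cell identity of the lines could not be checked by level.

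The targeted gene did not follow the label in both lines. ERN1, on its most variable probe set, was at 2.75 on the uninfected, 1.73 on the NT, 0.29 on the XBP1 shRNA and 2.11 on the IRE1 shRNA array of RPMI-8226. In JJN3 the same probe set was at -0.29, -0.35, -1.57 and -1.24 in that order. In each line this probe set was lowest on the array labelled XBP1 shRNA, not on the one labelled IRE1 shRNA. The RPMI-8226 array labelled IRE1 shRNA was thus above its NT array by 0.38 and below its uninfected array, while the JJN3 array was below its NT array by 0.89. A further ERN1 probe set differed by 0.23 and -1.16, the same directions, and the last one by -0.17 and 0.19. The fitted difference of ERN1 was -0.26 (SE 0.33, limma adjusted p = 0.876). Every direction below is that of arrays labelled IRE1 shRNA, and in RPMI-8226 the label was not borne out by the ERN1 mRNA.

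XBP1 mRNA, the substrate of the RNase and itself induced by ER stress, was lower on both arrays labelled IRE1 shRNA than on the NT arrays. It was at 0.19, 0.02, -0.58 and -0.60 on the uninfected, NT, XBP1 shRNA and IRE1 shRNA arrays of RPMI-8226, and at 1.02, 1.11, -0.02 and -1.47 on those of JJN3. In each line the array labelled IRE1 shRNA was the lowest of the 4, narrowly in RPMI-8226 and by a wide margin in JJN3. On the probe sets used, each targeted gene was thus lowest under the label of the other shRNA. Whether the IRE1 shRNA and XBP1 shRNA labels are right was not tested. The difference of XBP1 from NT was -0.63 and -2.58, with a fit of -1.60 (SE 0.38, limma adjusted p = 0.181), so it did not pass the threshold. The second XBP1 probe set differed by -0.01 and 0.10. Array signal sums spliced and unspliced XBP1 mRNA, so splicing was not measured.

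**Figure D1:**
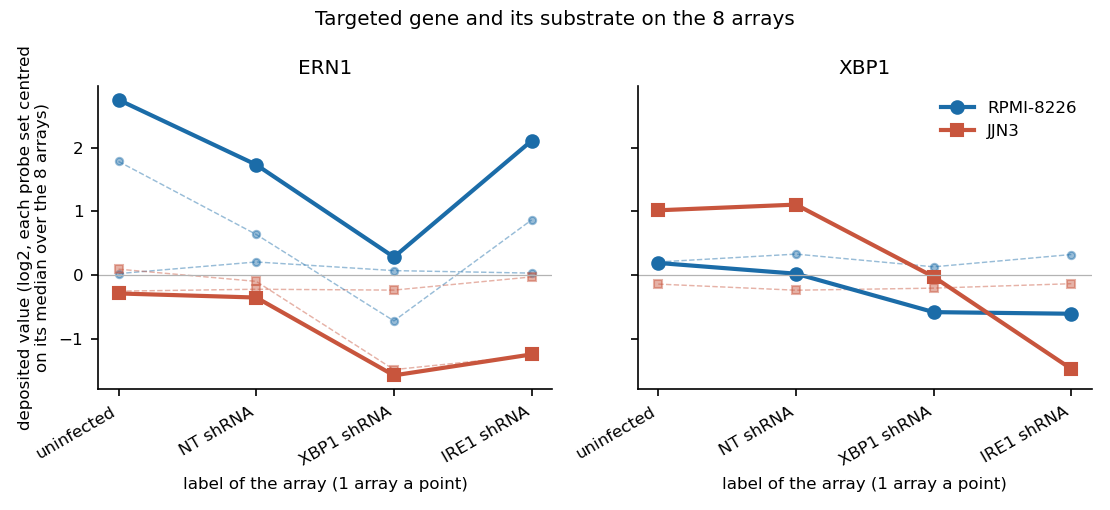
Deposited value (log2, centred on the median of the 8 arrays) of ERN1 and XBP1 by array label, 1 array per point, circles RPMI-8226 and squares JJN3; solid lines are the probe set used and dashed lines the others. ERN1 on the array labelled IRE1 shRNA is above NT in RPMI-8226 (2.11 against 1.73) and below it in JJN3 (-1.24 against -0.35), and the XBP1 probe set used is lowest on that array in both lines.

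Promoter sequences are shown because the unfolded protein response acts through short elements in them. The 250 bases before each gene's start, from RefSeq (GRCh38.p14), were searched on both strands for the ER stress element (ERSE: CCAAT and CCACG with 9 bases between), its second form (ERSE-II: ATTGG and CCACG with 1 base between), the core of the XBP1 element (UPRE: TGACGTGG) and an amino acid response element bound by ATF4-type factors (CARE: TGATGCAA). Of 27305 genes with an entry, 0.0916% held the ERSE, 0.0659% the ERSE-II, 0.78% the UPRE core and 0.967% the CARE. A match is only a run of letters, and 1 entry held an ERSE-II and a UPRE core that overlapped. Sequences are given 5′ to 3′ on the gene's strand, with the element in capitals. The first is all 250 bases upstream of XBP1 (chr22:28800570-28800819, minus strand), with an ERSE ending 33 bases before the start; the others are windows round an element. The ERSE of HSPA5 lies in chr9:125241366-125241434 (minus strand), of CRELD2 in chr22:49918529-49918597 (plus) and of PDIA6 in chr2:10812828-10812896 (minus). The ERSE-II of HYOU1 lies in chr11:119057355-119057415 (minus), of SDF2L1 in chr22:21642089-21642149 (plus) and of HERPUD1 in chr16:56932000-56932060 (plus). The CARE of CHAC1 lies in chr15:40953237-40953294 (plus), of CEBPG in chr19:33374046-33374103 (plus), of AARS1 in chr16:70289661-70289718 (minus), of SLC1A5 in chr19:46784879-46784936 (minus) and of MTHFD1L in chr6:150866332-150866389 (plus).
XBP1: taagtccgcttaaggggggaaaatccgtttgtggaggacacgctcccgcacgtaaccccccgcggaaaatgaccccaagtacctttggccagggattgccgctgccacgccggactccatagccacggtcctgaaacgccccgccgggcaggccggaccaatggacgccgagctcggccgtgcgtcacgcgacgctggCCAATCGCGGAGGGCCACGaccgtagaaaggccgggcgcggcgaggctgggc
HSPA5: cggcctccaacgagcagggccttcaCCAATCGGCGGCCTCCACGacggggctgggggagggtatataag
CRELD2: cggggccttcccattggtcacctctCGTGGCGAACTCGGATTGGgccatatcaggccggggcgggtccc
PDIA6: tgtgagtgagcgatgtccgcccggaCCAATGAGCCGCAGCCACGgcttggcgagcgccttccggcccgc
HYOU1: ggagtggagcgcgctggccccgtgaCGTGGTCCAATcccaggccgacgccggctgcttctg
SDF2L1: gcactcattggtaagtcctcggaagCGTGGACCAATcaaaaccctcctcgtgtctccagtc
HERPUD1: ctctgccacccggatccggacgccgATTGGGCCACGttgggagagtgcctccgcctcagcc
CHAC1: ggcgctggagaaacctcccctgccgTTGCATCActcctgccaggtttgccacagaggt
CEBPG: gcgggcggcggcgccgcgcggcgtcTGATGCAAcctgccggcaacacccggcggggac
AARS1: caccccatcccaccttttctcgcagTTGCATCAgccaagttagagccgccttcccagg
SLC1A5: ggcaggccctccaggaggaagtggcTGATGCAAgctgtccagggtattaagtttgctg
MTHFD1L: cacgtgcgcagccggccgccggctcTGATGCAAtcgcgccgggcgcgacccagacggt

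On the ER chaperone list 7 of 25 genes with an entry held the ERSE and 2 the ERSE-II, and on the list of ATF4 regulators and effectors 5 of 22 held the CARE. None of the 9 genes past the threshold that had an entry held any of the 4 elements (0 of 9). Over all measured genes with an entry 0.117% held the ERSE, 0.117% the ERSE-II, 0.975% the UPRE core and 0.826% the CARE. At such shares 0 of 9 cannot set these genes apart from the rest. Values of the genes printed above are given with their groups below, where holders of an element lay on both sides of 0.

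Few genes passed, and they are given singly. Of the 19775 genes, 12 (0.0607%) passed an adjusted p of 0.05 (limma, Benjamini-Hochberg), 3 higher (0.0152%) and 9 lower (0.0455%) on the arrays labelled IRE1 shRNA. At an unadjusted p under 0.05, 4.69% of all genes were higher and 5.88% lower. The 12 genes include no member of the lists of ER chaperones and of PERK-ATF4 genes used below, and neither ERN1 nor XBP1. The count rested on single arrays: it was 0 without the uninfected array of either line, without the RPMI-8226 NT array or without the JJN3 array labelled IRE1 shRNA, 2 without the JJN3 NT array, 31 without either XBP1 shRNA array and 32 without the RPMI-8226 array labelled IRE1 shRNA.

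The 9 genes that fell were lowest on the array labelled IRE1 shRNA among the 4 arrays of each line. Over all genes, 7.54% were lowest on that array in both lines and 6.90% highest. The 9 genes were chosen by a fit to these same arrays, which favours this order, so the order adds no support to the calls. H2BC12, a core histone H2B gene, was at -0.52, -0.47, 0.53 and -2.42 on the uninfected, NT, XBP1 shRNA and IRE1 shRNA arrays of RPMI-8226, and at 0.62, 0.47, 1.34 and -2.09 on those of JJN3. It was the lowest array of each line by a wide margin, and the groups did not overlap. The fall was 2.25 on the log2 scale against NT (-2.25, SE 0.20, limma adjusted p = 0.0243). H2B genes are near-identical, so the probe set may read several of them; the copy listed as H2BC12L differed by -1.44 and -2.04.

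MACROD1, an enzyme that removes ADP-ribose from proteins, was at 0.39, 0.34, 0.51 and -1.19 in RPMI-8226 and at -0.03, 0.03, -0.37 and -2.34 in JJN3, in the same order of arrays. RPIA, the ribose phosphate isomerase of the pentose phosphate pathway, was at 1.34, 1.32, 1.0 and -0.14 in RPMI-8226 and at -0.02, 0.02, -0.18 and -1.61 in JJN3. MOSPD1, a membrane protein with a motile sperm domain, was at 0.18, 0.39, 0.49 and -1.09 and at -0.20, -0.14, 0.14 and -1.81. In these 3 genes and H2BC12 the uninfected and NT arrays of a line differed by at most 0.20, and the 4 genes also passed the threshold against uninfected cells (limma adjusted p from 0.0201 to 0.0405).

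The other 5 lower genes were as follows. RNF149, a membrane ubiquitin ligase, fell by 1.36 against NT in RPMI-8226 and by 1.60 in JJN3. FBXO45, a substrate receptor of ubiquitin ligases, fell by 1.56 and by 1.15. MREG, melanoregulin, a protein of organelle transport, fell by 1.35 and by 1.24. NTAQ1, an amidase acting on N-terminal glutamine in the N-degron pathway, fell by 1.06 and by 1.46, and RNF11, a RING finger protein, by 1.05 and by 1.46. Their adjusted p against uninfected cells lay between 0.144 and 0.295 (limma), above the threshold. The second probe set of MREG differed by -1.44, the other 2 of FBXO45 by -1.17 and -0.78 and that of MOSPD1 by -0.95 in the fit, while that of MACROD1 differed by -0.33.

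The 3 higher genes stood on weaker ground. TMED4, a cargo receptor of early secretory transport, was at 0.66, -0.14, 0.14 and 1.28 in RPMI-8226 and at -0.49, -0.91, -0.83 and 0.40 in JJN3, a rise of 1.37 (SE 0.16, limma adjusted p = 0.0372). Of its other 4 probe sets, 2 differed by 0.28 and 0.07 and 2 by -0.49 and -0.69, so the probe sets disagreed in sign, and their mean was 0.11. SSBP3, a DNA-binding cofactor, was at 0.66, -0.76, -0.09 and 0.73 in RPMI-8226 and at 0.09, -0.98, -0.15 and 0.40 in JJN3. Its NT arrays were the low ones: the arrays labelled IRE1 shRNA stood 1.43 above NT but 0.19 above uninfected (limma adjusted p = 0.887), and its other probe sets differed from NT by 0.17 and 0.12. DCP2, the mRNA decapping enzyme, was at -0.36, -0.59, 1.35 and 0.57 in RPMI-8226 and at -1.02, -1.31, 0.90 and 0.36 in JJN3. It was higher still on the XBP1 shRNA arrays, and its other probe sets differed by 0.83, 0.55 and -0.02.

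Arrays labelled IRE1 shRNA were also tested directly against those labelled XBP1 shRNA, which uses no NT array as control but shares the arrays labelled IRE1 shRNA with the comparison above, so the calls of both are not independent. In that test 657 genes (3.32%) passed an adjusted p of 0.05 (limma), a count that was 10 without the JJN3 array labelled IRE1 shRNA, 122 without that of RPMI-8226, 334 without the JJN3 XBP1 shRNA array and 371 without either NT array. All 9 lower genes were among the genes that passed, with adjusted p from 0.0012 to 0.0251, and so was TMED4 (0.0108); SSBP3 (0.0646) and DCP2 (0.0761) were not. H2BC12 and RNF11 lay on opposite sides of NT under the 2 labels, at -2.25 and 0.93, and at -1.25 and 0.82. Both labels were taken as given, though ERN1 and XBP1 were each lowest under the label of the other shRNA.

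**Figure D2:**
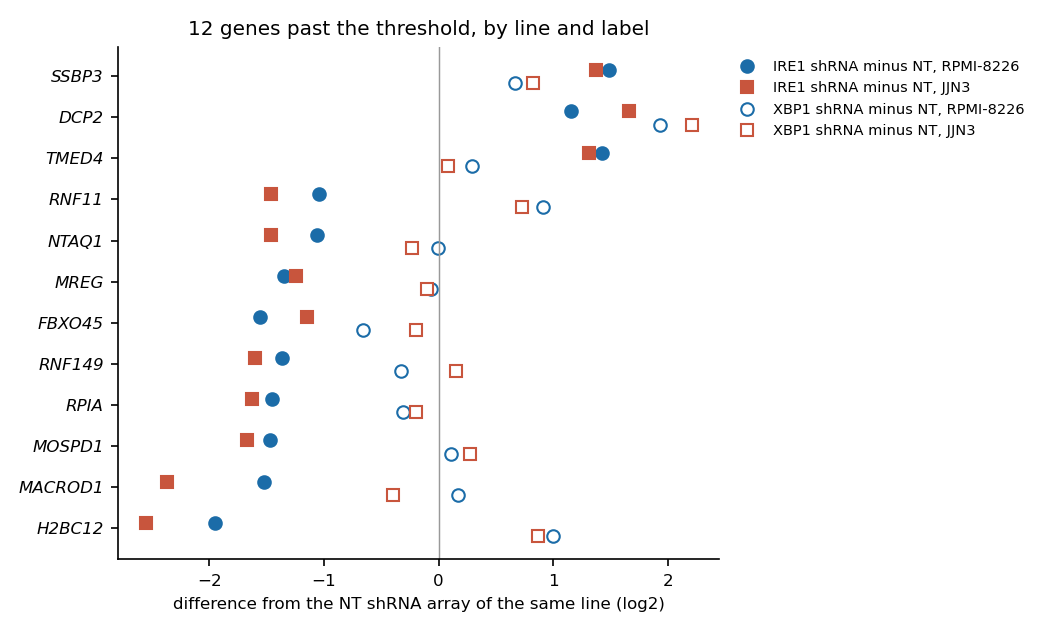
Difference from the NT array of the same line (log2) for the 12 genes past the threshold; filled symbols are arrays labelled IRE1 shRNA, open symbols arrays labelled XBP1 shRNA, circles RPMI-8226 and squares JJN3, 1 array pair per point. Filled symbols of the 9 lower genes lie between -1.05 and -2.56 in both lines, while the open symbols of DCP2 lie beyond its filled ones.

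Genes of the ER folding machinery were lower on the arrays labelled IRE1 shRNA in both lines, by amounts that no single gene carried past the threshold. Of 26 measured ER chaperones and disulfide enzymes 21 were lower in both lines and 0 higher in both; over all genes 28.0% were lower in both and 27.2% higher in both. None passed the adjusted threshold (0 of 26, limma). At an unadjusted p under 0.05 11 were lower and 0 higher, beside 5.88% and 4.69% of all genes. Their median difference was -0.38 against NT and -0.27 against uninfected, beside 0.00 and 0.01 over all genes. By line the median against NT was -0.28 (RPMI-8226) and -0.47 (JJN3). The fall was not particular to the IRE1 label. Between the XBP1 shRNA and NT arrays the list had a median of -0.43, beside -0.0004 over all genes. Between the arrays labelled IRE1 shRNA and XBP1 shRNA the median was -0.01.

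DNAJC3, a co-chaperone that also restrains PERK, was at 0.14, -0.14, -0.20 and -1.09 on the uninfected, NT, XBP1 shRNA and IRE1 shRNA arrays of RPMI-8226 and at 0.88, 1.11, 1.37 and -0.29 on those of JJN3. It was the lowest array of each line, at -1.17 from NT (SE 0.21, limma adjusted p = 0.108), and it passed the threshold against the XBP1 shRNA arrays (-1.28, limma adjusted p = 0.0192). DNAJB9, a co-chaperone induced by XBP1, differed from NT by -0.59 and -1.34, and lay at -0.53 and -1.07 on the XBP1 shRNA arrays beside 0.02 and -1.06 on the IRE1 shRNA arrays. FKBP14 and FKBP11, prolyl isomerases of the ER, were at -0.71 and -0.69 from NT in the fit. Among the 13 listed genes that hold an ERSE or ERSE-II, 10 were lower in both lines, with a median of -0.36. HSPA5, the chaperone BiP, differed by -0.14 and -0.59, CRELD2 by -0.30 and -0.69, HYOU1 by -0.18 and -0.56, SDF2L1 by -0.76 and -0.47 and HERPUD1 by -0.16 and -1.23 in RPMI-8226 and JJN3. The fitted difference of SDF2L1 was -0.62 against NT but -0.08 against uninfected. HERPUD1 also holds a CARE. PDIA6, which holds the ERSE as HSPA5 and CRELD2 do, differed by -0.09 and 0.18. Over all 36 measured holders of either element the median was -0.11.

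Genes of the steps before and after folding lay the same way. Between the XBP1 shRNA and NT arrays the medians were -0.16 for ER translocation and -0.09 for ER-Golgi transport. Of 24 genes of ER translocation and signal cleavage 14 were lower and 4 higher in both lines, beside 28.0% and 27.2% of all genes. At an unadjusted p under 0.05 (limma) 10 were lower, beside 5.88% of all genes, and the list median was -0.24. That median was -0.12 without probe sets of the suffixes _x_at and _s_at, which can read several transcripts, and -0.36 without the RPMI-8226 array labelled IRE1 shRNA. SSR2, of the complex that assists the translocon, was at 0.01, 0.35, -0.54 and -0.46 in RPMI-8226 and at 0.53, 0.71, -0.01 and -0.26 in JJN3. Both the XBP1 shRNA and the IRE1 shRNA array of a line lay below its uninfected and NT arrays, and the fitted difference was -0.89 (SE 0.16, limma adjusted p = 0.108). SEC61B and SEC61A1, parts of the translocation channel, differed from NT by -0.86 and -0.83.

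Of 42 genes of ER-Golgi transport 24 were lower and 8 higher in both lines, beside 28.0% and 27.2% of all genes. The list median was -0.21, and TMED4, the gene given above, passed the threshold as higher. The median was -0.14 without the JJN3 array labelled IRE1 shRNA. SEC22B, a fusion protein of that route, was at -0.99 (SE 0.19, limma adjusted p = 0.125), and SEC24D, a coat subunit, differed by -0.18 in RPMI-8226 and -1.68 in JJN3. The medians were -0.12 over 27 genes of N-glycosylation and -0.08 over 26 genes of ER-associated degradation. HERPUD1, a degradation factor at the ER membrane, was at -0.70 in the fit and UBXN4 at -0.69.

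ATF4 and the genes of its branch had far larger negative differences in JJN3 than in RPMI-8226. Of the 26 listed, 19 were lower in both lines and 2 higher in both, beside 28.0% and 27.2% of all genes. ATF4 itself was at 0.43, 0.07, -0.15 and 0.11 on the uninfected, NT, XBP1 shRNA and IRE1 shRNA arrays of RPMI-8226, and at 0.10, -0.07, -0.85 and -1.75 on those of JJN3. The JJN3 array labelled IRE1 shRNA was the lowest of the 8. Of these 26 measured regulators and effectors of the PERK-ATF4 branch, 14 were at least 2-fold lower in JJN3 and 0 in RPMI-8226; over all genes 1.48% were 2-fold lower in JJN3 (292 genes) and 0.592% in RPMI-8226 (117 genes). The medians were -1.39 in JJN3 and -0.12 in RPMI-8226, and against uninfected -1.65 and -0.28. Between the XBP1 shRNA and NT arrays they were -0.87 and -0.24. The JJN3 array labelled IRE1 shRNA was the lowest of its 4 for 20 of the 26, and that of RPMI-8226 for 5; over all genes the shares were 26.7% in JJN3 and 20.0% in RPMI-8226. In the fit none of the 26 passed (0, limma). At an unadjusted p under 0.05 14 were lower and 0 higher, beside 5.88% and 4.69% of all genes. The list median of -0.80 was -0.18 without the JJN3 array labelled IRE1 shRNA and -0.46 without the JJN3 NT array. The JJN3 array labelled IRE1 shRNA is also the one with the high hybridisation controls (0.42), whose part in the result was not tested.

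INHBE, an activin subunit induced by ER and amino acid stress, was at 0.97, 0.38, -1.37 and -0.38 in RPMI-8226 and at 0.81, 0.81, -1.40 and -4.26 in JJN3. The last array differed from NT by -5.08, while the 2 controls of JJN3 lay together. INHBE is not on the PERK-ATF4 list. ASNS, which makes asparagine, was at 0.62, -0.12, -0.32 and 0.12 in RPMI-8226 and at 0.81, 0.58, -0.70 and -2.50 in JJN3. SLC7A11, the cystine transporter, was at 0.16, -0.06, -0.39 and -0.44 in RPMI-8226 and at 0.75, 0.64, 0.06 and -2.19 in JJN3. All 3 genes were near their uninfected level on the JJN3 NT array and lowest on the JJN3 array labelled IRE1 shRNA. The XBP1 shRNA array of JJN3 lay between them.

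Other genes of the stress response and of amino acid supply were also lowest on the JJN3 array labelled IRE1 shRNA. The XBP1 shRNA array lay between it and the controls. CTH, which makes cysteine, differed from NT by -3.06 in JJN3 and -0.04 in RPMI-8226, SESN2, a stress-induced regulator of growth signalling, by -2.75 and -0.65, and ASS1, which makes argininosuccinate, by -2.71 and -0.39. DDIT3, the transcription factor CHOP, differed by -1.85 and -0.99, with a fit of -1.42 (SE 0.24, limma adjusted p = 0.0984). DDIT4, TRIB3 and JDP2 differed by -1.99, -1.97 and -2.34 in JJN3 and by -0.05, -0.34 and 0.33 in RPMI-8226. On the JJN3 XBP1 shRNA array the differences from NT were -1.69 for CTH, -1.76 for SESN2, -1.15 for ASS1, -1.08 for DDIT3, -0.96 for DDIT4, -0.95 for TRIB3 and -1.70 for JDP2. PPP1R15A, which restores translation after PERK signalling, was an exception at -0.16 in JJN3 and -0.09 in RPMI-8226, as was ATF5 at 0.41 and 0.12.

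Genes of amino acid supply and tRNA charging, many of which ATF4 regulates, also had lower medians in JJN3 than in RPMI-8226. Of 18 enzymes of serine, one-carbon, asparagine and cysteine synthesis 10 were at least 2-fold lower in JJN3 and 0 in RPMI-8226. Over all genes the shares were 1.48% and 0.592%, so 0 of 18 in RPMI-8226 is near that share. The list medians were -1.06 and -0.06. Against uninfected the medians were -1.23 and -0.43, since the NT arrays lay below uninfected over this list (-0.25 and -0.31). The XBP1 shRNA arrays had a similar pattern, with medians from NT of -0.91 and -0.25. The median between the arrays labelled IRE1 shRNA and XBP1 shRNA was -0.05. PHGDH, the first enzyme of serine synthesis, differed by -1.68 in JJN3 and -0.29 in RPMI-8226, PSPH, the last, by -2.01 and -0.17, and PCK2, a mitochondrial carboxykinase, by -2.31 and -0.34. SHMT2, the mitochondrial hydroxymethyltransferase, differed by -1.08 in JJN3 and 1.08 in RPMI-8226, where its NT array was the low one (1.50 uninfected, -0.26 NT, 0.82 IRE1 shRNA).

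The 17 amino acid transporters had medians of -0.70 in JJN3 and -0.26 in RPMI-8226, and 13 of the 17 were lower in both lines, beside 28.0% of all genes. Their medians from NT on the XBP1 shRNA arrays were -0.58 and -0.47. SLC7A5 and SLC3A2, the chains of the large neutral amino acid transporter, differed by -2.11 and -1.61 in JJN3 and by -0.14 and -0.50 in RPMI-8226. The 18 cytosolic aminoacyl-tRNA synthetase genes had medians of -0.59 and 0.06, with 6 at least 2-fold lower in JJN3, beside 1.48% of all genes. The 15 mitochondrial ones had medians of -0.20 and -0.06. For the cytosolic genes the medians against uninfected were -0.70 and -0.13. Those between the XBP1 shRNA and NT arrays were -0.48 and -0.08. SARS1, the seryl-tRNA synthetase, differed by -1.88 in JJN3 and -0.49 in RPMI-8226.

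Of the genes whose CARE sequence is printed above, CHAC1, which degrades glutathione, differed by -2.28 in JJN3 and -0.07 in RPMI-8226. CEBPG, a dimer partner of ATF4, differed by -1.31 and 0.46, AARS1, the alanyl-tRNA synthetase, by -1.52 and -0.19, and SLC1A5, a glutamine carrier, by -0.90 and -0.19. MTHFD1L, a mitochondrial folate enzyme, differed by 0.44 and -0.07. Over all 127 measured genes with the CARE the median was -0.05 in JJN3 and 0.01 in RPMI-8226.

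The difference between the lines was tested directly. None of the 19775 genes passed (0, 0.00%, limma), the smallest adjusted p being 0.0711 for INHBE; 725 genes (3.67%) had an unadjusted p under 0.05. These included 13 of the 26 PERK-ATF4 genes, 9 of the 18 serine and one-carbon enzymes, 4 of the 17 transporters and 5 of the 18 cytosolic synthetases, but 2 of the 26 ER chaperones. The JJN3 difference minus the RPMI-8226 difference was -4.32 for INHBE, -3.32 for ASNS (limma adjusted p = 0.234) and -2.45 for SLC7A11 (limma adjusted p = 0.462). With the line term freed for the arrays labelled IRE1 shRNA only, INHBE passed (-3.97, limma adjusted p = 0.0439). Over all genes the differences of the 2 lines had a Pearson r of 0.253 and a Spearman rho of 0.191 across 19775 genes, which are not independent replicates, and their SD was 0.329 in RPMI-8226 and 0.387 in JJN3.

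**Figure D3:**
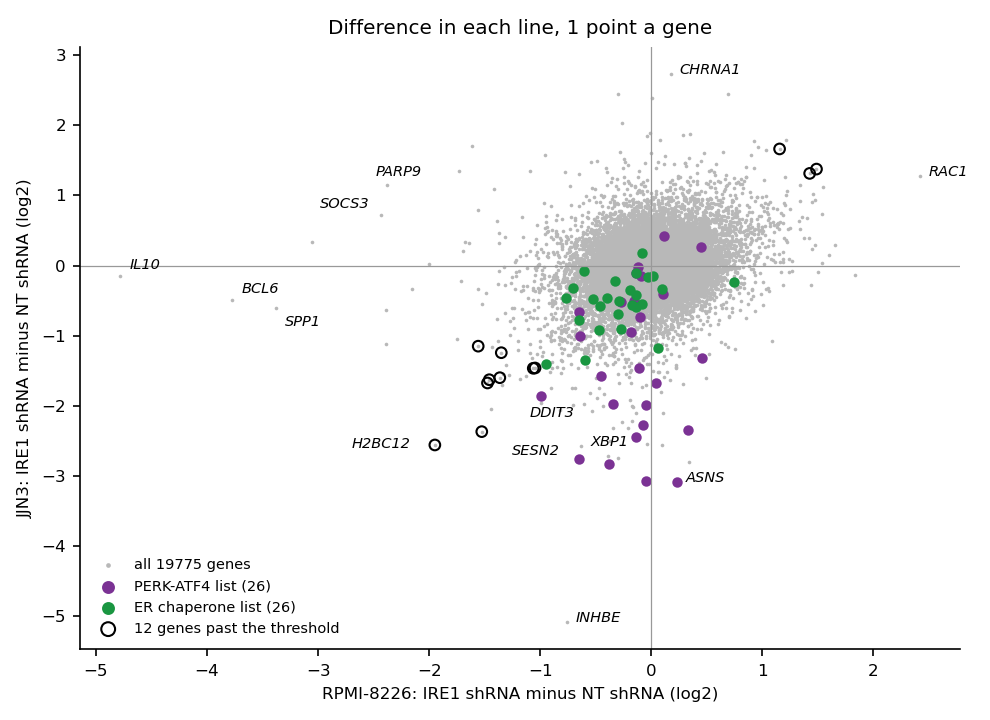
Difference between the array labelled IRE1 shRNA and the NT array (log2) in RPMI-8226 (x) and JJN3 (y), 1 point per gene; coloured points are the PERK-ATF4 and ER chaperone lists, rings the 12 genes past the threshold. PERK-ATF4 genes spread down the JJN3 axis near 0 in RPMI-8226 (medians -1.39 and -0.12), and IL10, BCL6 and SPP1 lie far to the left near 0 in JJN3.

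**Figure D4:**
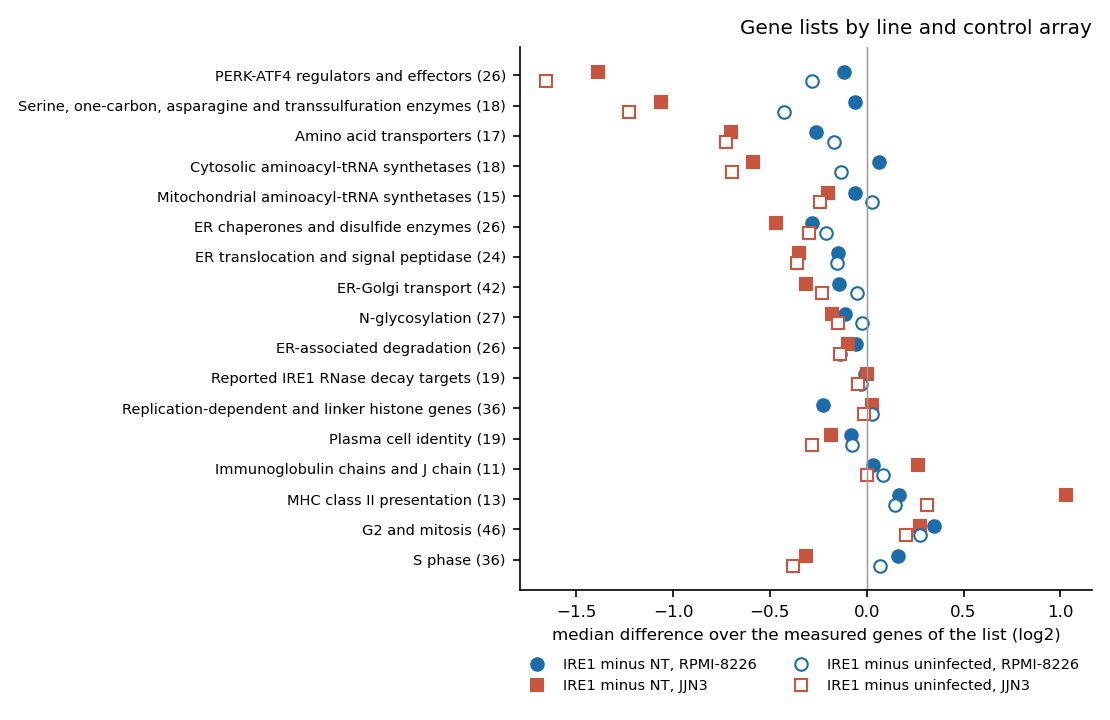
Median difference (log2) over the measured genes of each list (number in brackets), filled against the NT array and open against the uninfected array, circles RPMI-8226 and squares JJN3. The 4 lists of ATF4 and amino acid genes lie lowest in JJN3 against either control, and the MHC class II list is at 1.03 against NT but 0.31 against uninfected in JJN3.

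In RPMI-8226 the largest differences lay where the NT array itself stood apart. IL10, a cytokine, was at 2.13 on the uninfected, 5.45 on the NT, 0.17 on the XBP1 shRNA and 0.67 on the IRE1 shRNA array, a difference from NT of -4.78. BCL6, the germinal centre repressor, was at -3.85, -0.15, -3.93 and -3.92. SPP1, the secreted phosphoprotein osteopontin, was at -0.81, 2.87, -1.23 and -0.51. For all 3 the NT array was the highest of the line, and for BCL6 and SPP1 the array labelled IRE1 shRNA lay close to the uninfected one.

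SOCS3, a feedback inhibitor of cytokine signalling, and PARP9, an interferon-induced protein, showed the same shape, at -1.98, -0.01, -2.21 and -2.45, and at -2.74, -0.30, -2.64 and -2.68. In JJN3 none of these 5 genes differed by more than 1.15 between the NT array and the array labelled IRE1 shRNA. The reverse shape was found among the largest positive differences. RAC1, a small GTPase, was at 0.06, -2.47, 0.05 and -0.05, PLA2G12A, a phospholipase, at -0.11, -1.74, 0.08 and -0.08, and ISOC1 at 0.19, -1.15, 0.37 and 0.39.

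The counts bear the same asymmetry. In RPMI-8226, 117 genes were at least 2-fold lower than NT on the array labelled IRE1 shRNA, and for 44 of them the NT array was itself at least 2-fold above uninfected; 16 were also 2-fold below uninfected. Of the 99 genes at least 2-fold higher (0.501% of all), 46 had an NT array at least 2-fold below uninfected and 7 were 2-fold above uninfected. In JJN3 4 of the 292 lower genes had such an NT array and 193 were also 2-fold below uninfected; of the 177 higher (0.895%) these were 3 and 80. The NT array was at least 2-fold from uninfected for 270 genes in RPMI-8226 and 23 in JJN3. For 156 of the 270 genes the other infected arrays of RPMI-8226, those labelled XBP1 shRNA and IRE1 shRNA, both lay within 2-fold of the uninfected array. The NT shRNA and its single culture in RPMI-8226 cannot be told apart. Both lines together had 26 genes at least 2-fold lower (0.131%) and 13 higher (0.0657%).

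**Figure D5:**
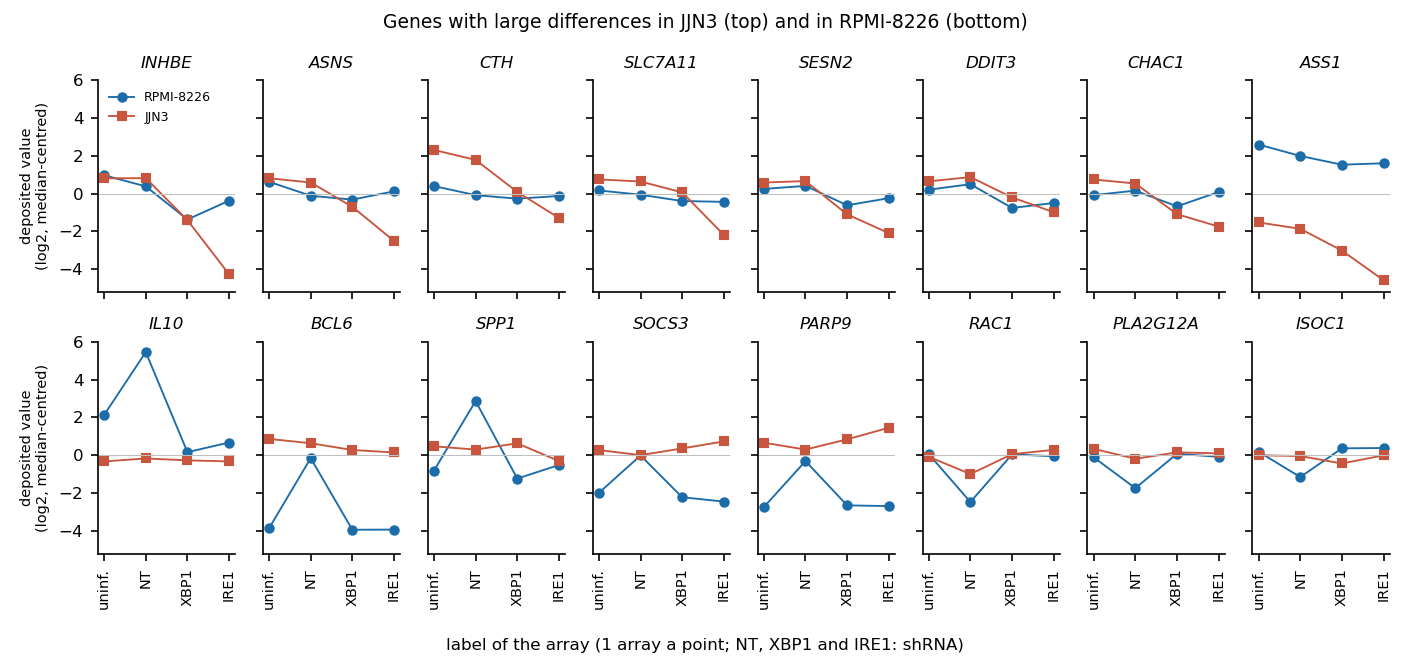
Deposited value (log2, median-centred) on the 8 arrays for 8 genes with large differences in JJN3 (top) and 8 with large differences in RPMI-8226 (bottom), circles RPMI-8226 and squares JJN3. In the top row the JJN3 array labelled IRE1 shRNA is the lowest of its line, and in the bottom row the RPMI-8226 NT array stands apart from the other 3 of its line, as for BCL6 at -0.15 against -3.85, -3.93 and -3.92.

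Not every large RPMI-8226 difference had this shape. INTS4, a subunit of the Integrator complex, was at -0.04, 1.33, 1.13 and -1.05 in RPMI-8226 and at -0.14, 0.04, 0.22 and -1.09 in JJN3, lowest on the array labelled IRE1 shRNA in both (-1.76, SE 0.29, limma adjusted p = 0.098), and it passed the threshold against the XBP1 shRNA arrays (-1.75, limma adjusted p = 0.0189). Its other 4 probe sets differed from NT by -0.42, -0.21, -0.12 and -0.01, far less than the one used. TEX19 was highest on that array in RPMI-8226, at 2.56, 1.96, 1.01 and 3.56, and differed by 0.15 from NT in JJN3. Among the largest positive differences in JJN3, CHRNA1, a muscle acetylcholine receptor subunit, was at 0.80, 0.81, 2.19 and 3.54 and HEPACAM2 at 0.40, 1.02, 0.23 and 3.41, with differences of 0.17 and 0.00 in RPMI-8226.

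Genes that the IRE1 RNase has been reported to cut, which would be more abundant with less RNase activity, had no shared direction. Of 19 measured 5 were higher and 5 lower in both lines, near the 27.2% and 28.0% of all genes, with a median of -0.08. At an unadjusted p under 0.05 (limma) 1 was higher and 1 lower, beside 4.69% and 5.88% of all genes. RNase activity was not measured, and ERN1 on the probe set used was above NT in RPMI-8226. CD59, an inhibitor of complement, was at -0.12, -0.32, -0.27 and -0.02 in RPMI-8226 and at 0.44, 0.02, 0.53 and 1.47 in JJN3, with a fit of 0.88 (SE 0.25, limma adjusted p = 0.234). Its other 4 probe sets differed by -0.05, 0.08, 0.12 and 0.25.

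Histone genes differed more from the XBP1 shRNA arrays than from NT, with medians of -0.32 and -0.07. Of 36 replication-dependent and linker histone genes measured, 9 passed the threshold between the arrays labelled IRE1 shRNA and XBP1 shRNA, all lower under IRE1 shRNA (3.32% of all genes passed that test), and against NT H2BC12 alone passed. Between the XBP1 shRNA and NT arrays the 36 genes had a median of 0.28, beside -0.0004 over all genes. The median of IRE1 shRNA against NT was 0.12 without the RPMI-8226 NT array and -0.28 without that of JJN3. H2BC6 was at -0.54, -0.14, 0.69 and -0.75 on the uninfected, NT, XBP1 shRNA and IRE1 shRNA arrays of RPMI-8226 and at 0.14, 0.14, 1.08 and -0.73 on those of JJN3. The XBP1 shRNA array was the high one and the array labelled IRE1 shRNA the low one in both lines (-1.62 between them, limma adjusted p = 0.0063; -0.74 against NT). H1-2, a linker histone, and H2BC9 differed from the XBP1 shRNA arrays by -1.61 and -1.72. Poly-A tails on these mRNAs are rare and the genes are near-identical, so the values may read several genes.

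Plasma cell genes had a median of -0.10 over 19 measured. MZB1, an ER chaperone of antibody-secreting cells, was at 1.09, 1.42, 0.63 and 0.82 in RPMI-8226 and at -0.93, -0.63, -1.54 and -1.83 in JJN3, a difference of -0.90 (SE 0.19, limma adjusted p = 0.147). ELL2, an elongation factor that directs secretory immunoglobulin mRNA, was at -0.76, -1.27, -1.15 and -0.56 and at 1.16, 0.87, 0.56 and 1.88, a difference of 0.86 (SE 0.19, limma adjusted p = 0.172). The other 3 probe sets of ELL2 differed by 0.16, 0.14 and -0.40, so they disagreed in sign. Neither MZB1 nor ELL2 passed, and the groups overlapped only through the offset between the lines. Immunoglobulin and J chain genes had a median of 0.08 over 11 measured.

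MHC class II genes were higher against NT in JJN3, with medians over 13 genes of 1.03 in JJN3 and 0.17 in RPMI-8226. HLA-DPB1, a class II chain, was at -0.05, -0.36, -0.61 and 0.05 in RPMI-8226 and at 0.96, 0.05, -0.16 and 1.37 in JJN3. The JJN3 NT array lay below the uninfected one over the list (median -0.57), and against uninfected the JJN3 median was 0.31. Class II probe sets may cross-hybridise among the chains. HLA-DPB1 passed against the XBP1 shRNA arrays (1.09, limma adjusted p = 0.0403).

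Genes of G2 and mitosis had a median of 0.31 over 46, with 31 higher and 3 lower in both lines and 13 higher, 0 lower, at an unadjusted p under 0.05; none passed the adjusted threshold (0, limma). Over all genes 27.2% were higher in both lines and 4.69% were higher at that unadjusted p, and the list median was 0.19 without the RPMI-8226 NT array. CDCA3, a mitotic entry factor, was at -0.58, -1.31, -0.14 and -0.09 in RPMI-8226 and at 0.49, 0.09, 0.14 and 1.14 in JJN3. The median over the same 46 genes was 0.34 between the XBP1 shRNA and NT arrays, which shares the NT arrays, and 0.25 for the arrays labelled IRE1 shRNA against uninfected. S phase genes had medians of 0.16 in RPMI-8226 and -0.32 in JJN3. Of 28 NF-kB targets 11 were higher and 1 lower in both lines, beside 27.2% and 28.0% of all genes. Against the XBP1 shRNA arrays 2 of the 28 passed (limma), beside 3.32% of all genes. CXCL10, a chemokine, and TNFAIP3, the feedback enzyme A20, were 1.66 and 1.52 above those arrays (limma adjusted p = 0.0222 and 0.00684). They were 0.93 and 0.73 above NT, which did not pass, and 1.36 and 0.21 above uninfected. The 17 UPR sensors and transducers, among them XBP1 and ERN1, had a median of -0.14. The other lists, of heat shock proteins, NRF2, autophagy, p53, BCL2, proteasome, glycolysis, MYC, interferon, MHC class I and B cell genes, had medians between -0.10 and 0.18, and the 26 sterol and fatty acid genes had a median of -0.29 that was 0.06 against uninfected and -0.14 without the JJN3 array labelled IRE1 shRNA.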

How the data were processed

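RNA of 8 samples was measured on Affymetrix arrays with 54675 probe sets. The deposited log2 values were made with RMA, per the submitters' processing notes, which give no version; RMA adjusts background, normalises by quantiles and returns log2 values, and the base was taken as 2 on that ground. In the deposited table the 8 values of every probe set had their median at 0 (tolerance 1e-05), a centring the notes do not state, so the values give no level. Quantile normalisation hides any shift common to all genes. Values ran from -5.73 to 5.45, 0 of 28 array pairs were identical and 0 columns belonged to no sample. The number of arrays limits the precision, and signal over background is unknown.

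The annotation table named exactly 1 gene for 41097 probe sets (1801 had several and 11777 were not listed), of which 41043 matched the GRCh38.p14 gene table and 0 changed name. Of the 19775 genes 10523 had several probe sets, and the most variable (largest SD across arrays) stood for the gene. limma 3.58.1 in R 4.3.3 (lmFit, eBayes, two-sided) was fitted to all 8 arrays with treatment and line, 3 residual degrees of freedom, and p adjusted by Benjamini-Hochberg over all genes with a threshold of 0.05. The line is the pairing, since both arrays of a pair come from the same line; the differences between the lines correlated at 0.897 to 0.929 across treatments. The line difference was fitted with free line terms for the arrays labelled IRE1 shRNA and NT shRNA, which leaves 1 residual degree of freedom. The labels do not say whether cultures were independent, so p-values measure only the spread between these arrays. The scripts were tested on simulated data.

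The comparison and the 35 gene lists were chosen with earlier results of these data known. Named genes were ERN1 and XBP1, all genes past the threshold, the members of each list past the threshold and at most 5 more with the largest fitted difference and 1 sign in both lines, the 8 largest of each sign in each line, and 3 of each sign of the line difference by p. Other named genes (ATF4, ATF5, CEBPG, CHAC1, CRELD2, DDIT4, H2BC12L, HYOU1, JDP2, MTHFD1L, PDIA6, PPP1R15A, SHMT2, SLC1A5 and TRIB3) were chosen after their values were seen. Alternatives were other probe set rules, normalisations, filters and controls, and leaving out each array. Promoters came from RefSeq (35116 entries). The shRNA sequences were not used here.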

Additional observations from a re-analysis of the deposited data

Results flagged for a closer look

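The hybridisation control probe sets, which read spiked-in material and no gene of the cells, had a median of 0.42 on the JJN3 array labelled IRE1 shRNA, above the higher of the NT arrays (0.09). The part of this shift in the JJN3 differences was not tested.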

How the results depend on the processing

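The 12 genes past the threshold became 5 with the mean of all probe sets of a gene, 1 after a further quantile normalisation, 0 after cyclic loess (2086 at an unadjusted p under 0.05), 4 with the genes above the median SD only, 19 with robust eBayes, 4 with uninfected cells as the control and 27 with NT and uninfected cells together. Quantile normalisation and cyclic loess were applied to the centred values. They therefore acted on deviations from each probe set's median, not on intensity, and cannot check the normalisation of the signal. The fit without the replicate block of lines called 0 (180 unadjusted), and for IRE1 shRNA against XBP1 shRNA also 0 (411 unadjusted) in place of 657. With 1 array left out the count ranged from 0 to 32: 0 without either uninfected array, the NT array of RPMI-8226 or the IRE1 shRNA array of JJN3, 2 without the NT array of JJN3, 31 without either XBP1 shRNA array and 32 without the RPMI-8226 IRE1 shRNA array. For IRE1 shRNA against XBP1 shRNA it ranged from 10 (without the JJN3 IRE1 shRNA array) to 527 (without the RPMI-8226 XBP1 shRNA array), with 297 for the mean of probe sets and 369 after quantile normalisation; these alternatives were added after seeing the data. For the line difference 0 became 1, 2 and 1 with the mean of probe sets, the genes above the median SD and a free line term for the IRE1 shRNA arrays only. Leaving out arrays was not run for the line difference, since no residual degree of freedom remains. None of the 12 genes changed sign under the alternatives run; the cause of the lost calls was not tested. The 4 arrays alone gave 12 genes, 7 of them shared.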
